A study of Mus musculus with 7 samples.

Results

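The genes described here are 10 of the 31053 genes in the deposited matrices, chosen by symbol for their known parts in cell death and oocyte quality control: Trp63, Chek2, Bax, Bcl2, Bcl2l1, Bcl2l11, Mcl1, Bbc3, Pmaip1 and Casp2. Each symbol occurred once. The study captured single cells from E11.5 gonads and from ovaries of 4 fetal ages (E12.5 and E14.5, then E16.5 and E18.5) and 2 postnatal ages (P1, P5), with 1 10x Genomics library per age. All animals were untreated wild-type C57BL/6J mice, several gonads were pooled for a library, and trypsin dissociation lasted 20 min at E11.5 and E12.5, 40 min at E14.5 and E16.5, 60 min at E18.5 and 80 min at P1 and P5. Age, library and dissociation time therefore cannot be told apart, and no test across samples was possible. Cells with at least 200 genes were kept, and a cell with 3 or more unique molecular identifiers (UMIs) of the germ cell genes Dazl and Ddx4 was called a germ cell, while a cell with none was called somatic.

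In the mitochondrial pathway of cell death, the protective proteins Bcl2, Bcl2l1 (BCL-XL) and Mcl1 hold back the pore former Bax, and the BH3-only proteins Bcl2l11 (BIM), Bbc3 (PUMA) and Pmaip1 (NOXA) bind the protective proteins and so release it. In oocytes with unrepaired DNA breaks, the checkpoint kinase Chek2 activates the p53 relative p63, encoded by Trp63, which can induce Bbc3 and Pmaip1. Caspase-2, encoded by Casp2, is a protease that has been linked to germ cell death in the ovary. Most germ cells of the mouse ovary are lost between late fetal life and the formation of primordial follicles.

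From E12.5 to P5 there were 4751 germ cells and 34779 somatic cells, and 3037 cells with 1 or 2 UMIs of Dazl and Ddx4 were left out of both classes. Values given in order of age run over the 6 ages from E12.5 to P5. Germ cells numbered 321, 2669, 1016, 439, 244 and 62 in order of age, with median depths between 12107 and 60954 UMIs, against 5704 to 10690 in somatic cells. As a check on the label, the germ cell genes Dppa3, Mael, Stk31, Tdrd9 and Sycp3 together reached 1179 to 6010 CPM (counts scaled to the same total in every class) in germ cells and 6.16 to 37.5 CPM in somatic cells. A somatic marker gate was also passed by 12.98% (E18.5) to 40.3% (P5) of the germ cells, so these held markers of another class. Most of these gates are a fixed count of UMIs. The share passing had the same order over the libraries as the median germ cell depth, from 12107 UMIs at E18.5 to 60954 UMIs at P5. Leaving such cells out therefore removes a larger share of germ cells in libraries with deeper germ cells. The part of depth in this share was not tested. The E11.5 library held only 9 germ cells and entered no comparison. To obtain a level, the UMIs of a gene were added up within a class and scaled to CPM by that class total, with a 95% exact Poisson interval in parentheses. A ratio of 2 levels has a 95% exact interval conditional on their summed UMIs. These intervals cover counting error only.

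The E16.5 library stood apart from the others. It shared 0 to 3 cell barcodes with each other library, while the other 15 pairs of libraries shared 20 to 131, although the labels give the same chemistry for all. Mitochondrial genes took 7.52% of its germ cell UMIs, against 2.83 to 5.13% at the other ages from E12.5. For members whose course turns on E16.5, the step from E14.5 to E18.5 is therefore also given. What sets this library apart was not tested.

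Bax reached at least a 2-fold higher level in germ than in somatic cells in 5 of 6 libraries and Bcl2 was lower in all 6, so the sequence around their annotated starts is shown (RefSeq, GRCm38.p6, minus strand for both, 250 bases before to 50 after the start, 5′ to 3′). The windows of 8 members were searched, without Trp63 and Pmaip1. A p53-family decamer, searched on both strands, occurred in 1 of the 13 windows of these 8 members and in 8.36% of all 32851 windows. The 1 window was that of Bax, where capitals mark the decamer from base 50. The STRA8 motif CNCCTCAG, also searched on both strands, occurred in 0 of the 13 windows of these 8 members and in 7.94% of all windows. The Bax window lies at chr7:45466849-45467148 and the Bcl2 window at chr1:106714241-106714540.
Bax: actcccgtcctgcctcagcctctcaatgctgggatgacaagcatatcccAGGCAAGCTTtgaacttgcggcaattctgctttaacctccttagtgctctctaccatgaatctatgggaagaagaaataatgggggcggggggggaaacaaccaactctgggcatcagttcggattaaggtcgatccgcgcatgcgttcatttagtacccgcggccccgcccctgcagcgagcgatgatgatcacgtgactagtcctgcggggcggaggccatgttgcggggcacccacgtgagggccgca
Bcl2: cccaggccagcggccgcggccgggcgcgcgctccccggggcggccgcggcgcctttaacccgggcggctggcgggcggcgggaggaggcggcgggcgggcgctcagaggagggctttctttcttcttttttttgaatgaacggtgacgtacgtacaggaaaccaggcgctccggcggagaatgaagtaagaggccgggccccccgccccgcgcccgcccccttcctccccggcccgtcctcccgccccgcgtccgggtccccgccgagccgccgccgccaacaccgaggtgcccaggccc
These matches describe letters only. The windows also differed in CpG dinucleotides, which made up 6.35 per 100 positions of the Bax window and 14.7 of the Bcl2 window, against a median of 2.34 over all windows.

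Trp63 (ENSMUSG00000022510, chr16:25683763-25892102, plus strand, positions here and for the other members on GRCm38) was almost absent from germ cells until E16.5 and present from E18.5 on. In order of age, germ cells held 0.270 (0.0326 to 0.974), 0.0549 (0.00665 to 0.198), 0.751 (0.452 to 1.17), 8.35 (6.11 to 11.1), 33.4 (29.0 to 38.3) and 45.9 (39.0 to 53.7) CPM, on 2 UMIs at each of the first 2 ages. The intervals of E16.5, E18.5, P1 and P5 did not overlap between neighbouring ages, although the lower bound of P5 lay only just above the upper bound of P1. In somatic cells of the same libraries Trp63 lay between 0.137 and 1.62 CPM.

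The germ cell level of Trp63 was multiplied by 13.7 (3.30 to 121) from E14.5 to E16.5, where the earlier level rests on 2 UMIs. It was multiplied by 11.1 (6.39 to 20.1) from E16.5 to E18.5 and by 4.0 (2.89 to 5.64) from E18.5 to P1. From P1 to P5 the factor was 1.37 (1.11 to 1.70), the smallest of the steps after E14.5. Without the E16.5 library, the step from E14.5 to E18.5 was 152 (39.8 to 1294). The ratio of germ to somatic level was 14 (7.57 to 27.6) for E18.5, 64.7 (41.6 to 106) for P1 and 28.3 (21.2 to 38.1) for P5. With the germ gate applied after thinning these ratios were 9.03, 22.2 and 12.8, and over all alternatives the P1 ratio reached 124.

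The share of germ cells with a Trp63 UMI followed the same order. After every cell was thinned to 2000 UMIs it was 0 of 969 cells at E16.5 (upper bound 0.380%), 1.39% (0.510 to 2.99%) in the E18.5 cells, 6.44% (3.65 to 10.4%) in those of P1 and 9.68% (3.63 to 19.9%) in those of P5. Without thinning the shares were 1.77%, 7.52%, 43.9% and 79.0%, at median depths of 25097.5, 12107, 20902 and 60954 UMIs. Cells of the erythroid gate (at least 20% haemoglobin UMIs), which should lack the gene, gave 0, 0, 0.333 and 0% without thinning, at median depths of 5387 to 8641 UMIs, below those of the germ cells. After thinning to the same depth the erythroid shares were 0, 0, 0.169 and 0%, with upper bounds of 0.539, 3.85, 0.938 and 1.45%. The thinned germ cell shares of P1 and P5 lay above these bounds, and those of E16.5 and E18.5 were not distinguishable from background at this depth.

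Within the E18.5 library, nearly all Trp63 UMIs lay in germ cells with genes of oocyte differentiation. The germ cells were split by their summed UMIs of Figla, Nobox, Zp3, Gdf9, Ooep, Padi6 and Nlrp5, which encode oocyte transcription factors, a zona protein, a growth factor and maternal complex proteins. Trp63 had 0 UMIs in the 56 cells with none of these UMIs, where 3 UMIs would be 6.15 CPM, and 1.09 CPM in the 90 cells with 1 or 2 (0.0277 to 6.09). In the 293 cells with 3 or more it reached 10.96 CPM (7.997 to 14.7). These cells held 45 of the 46 Trp63 UMIs, and 4104496 of the 5508087 UMIs of all genes in the E18.5 germ cells. Median depths of the 3 gates were 7822, 10446.5 and 13669 UMIs. At E16.5, 478 germ cells passed the gate of 3 or more and held 0.552 CPM of Trp63 (0.238 to 1.09). Their median depth was 28848 UMIs, so the fixed count of 3 UMIs is a lower level of oocyte genes there than at E18.5. Nearly all germ cells at P1 (226 of 244) and all 62 at P5 passed that gate. The 6 and 12 cells at P1 with 0 and with 1 or 2 oocyte gene UMIs held 42.4 and 38.8 CPM of Trp63 on 2 UMIs each, against 33.3 CPM in the gate of 3 or more. At P5 a germ cell had a median of 2 Trp63 UMIs and at most 11.

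**Figure D1:**
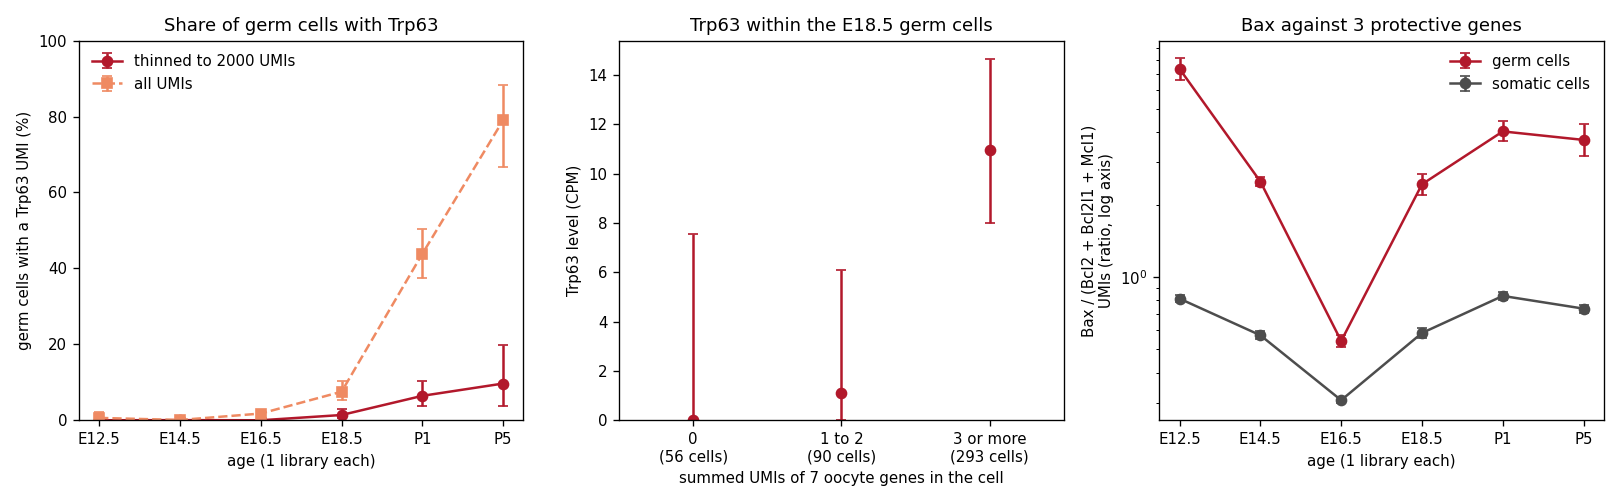
Left, the share of germ cells with a Trp63 UMI by age, with exact binomial intervals, after thinning to 2000 UMIs and with all UMIs. Middle, the Trp63 level in CPM in 3 gates of the E18.5 germ cells with exact Poisson intervals, highest at 10.96 CPM in the cells with 3 or more oocyte gene UMIs. Right, Bax UMIs over the summed UMIs of Bcl2, Bcl2l1 and Mcl1 on a log axis, with a low point of 0.542 in germ cells at E16.5.

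The genes whose levels followed Trp63 most closely were Gm47448, Trim61, Arhgap20os, 4930562C15Rik, Cd55b, Nlrp4f, Syt16 and Olah. They were the 8 with the highest Pearson r of log2(CPM + 1) over 12 classes (germ and somatic cells of 6 libraries), among 9784 genes with at least 20 CPM in a class. Their r ranged from 0.982 to 0.992, and the classes of an age share a library. In germ cells at P5 they were at 22.1 CPM (Cd55b) to 276 CPM (4930562C15Rik), and in germ cells at E16.5 at most at 2.10 CPM (4930562C15Rik). These levels follow in part from how the genes were chosen, by r with Trp63 and at least 20 CPM in a class. They are thus no separate result.

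Trp63 in somatic cells stayed sparse. At P5 there were 70 Trp63 UMIs in 68 of 5991 somatic cells with at most 2 in a cell, and 2 of these UMIs were in the 142 somatic cells with 3 or more oocyte gene UMIs. The somatic level of 1.62 CPM at P5 (1.26 to 2.05) was the highest of the 6 libraries. The source of these UMIs was not tested.

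Chek2 (ENSMUSG00000029521, chr5:110839979-110874145, plus strand), the checkpoint kinase upstream of p63, was lower in germ cells at each age up to E18.5 than at the age before. Germ cells held 29.4 (25.6 to 33.6), 17.9 (16.6 to 19.4), 10.7 (9.44 to 12), 6.17 (4.27 to 8.63), 12.8 (10.1 to 16.0) and 20.9 (16.4 to 26.4) CPM in order of age. The lowest germ cell level was thus at E18.5, where Trp63 first exceeded 5 CPM, and the factor from E18.5 to P1 was 2.08 (1.37 to 3.21). Somatic levels moved within a narrower band, 7.97, 6.12, 9.63, 9.24, 10.5 and 5.93 CPM. Chek2 had a germ to somatic ratio of 3.69 (3.11 to 4.37) at E12.5, 2.93 (2.54 to 3.39) at E14.5 and 3.53 (2.68 to 4.60) at P5. The E18.5 ratio was 0.668 (0.451 to 0.962).

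Lower Chek2 was also seen with meiotic genes high within the E14.5 library. Cells below 100 CPM of Stra8, the inducer of meiosis, and below 500 CPM of Sycp3, a synaptonemal complex gene, held 26.7 CPM of Chek2 (21.6 to 32.7; 220 cells). Cells with Stra8 at or above its limit and Sycp3 below held 20.97 CPM (19.1 to 22.9; 1511 cells), and cells at or above both limits held 8.17 CPM (6.51 to 10.1; 925 cells). The last interval overlapped neither of the others. Bax, at 256, 222 and 144 CPM, and Bcl2l11, at 15.9, 10.3 and 6.99 CPM, had the same order over these gates. Mcl1, at 55.6, 56.3 and 54.6 CPM, and Casp2, at 15.6, 13.9 and 15.6 CPM, had overlapping intervals in all 3. Bcl2l1 was at 16.7, 19.6 and 21.6 CPM, also with overlapping intervals. Median depths were 15543.5, 14334 and 10953 UMIs.

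**Figure D2:**
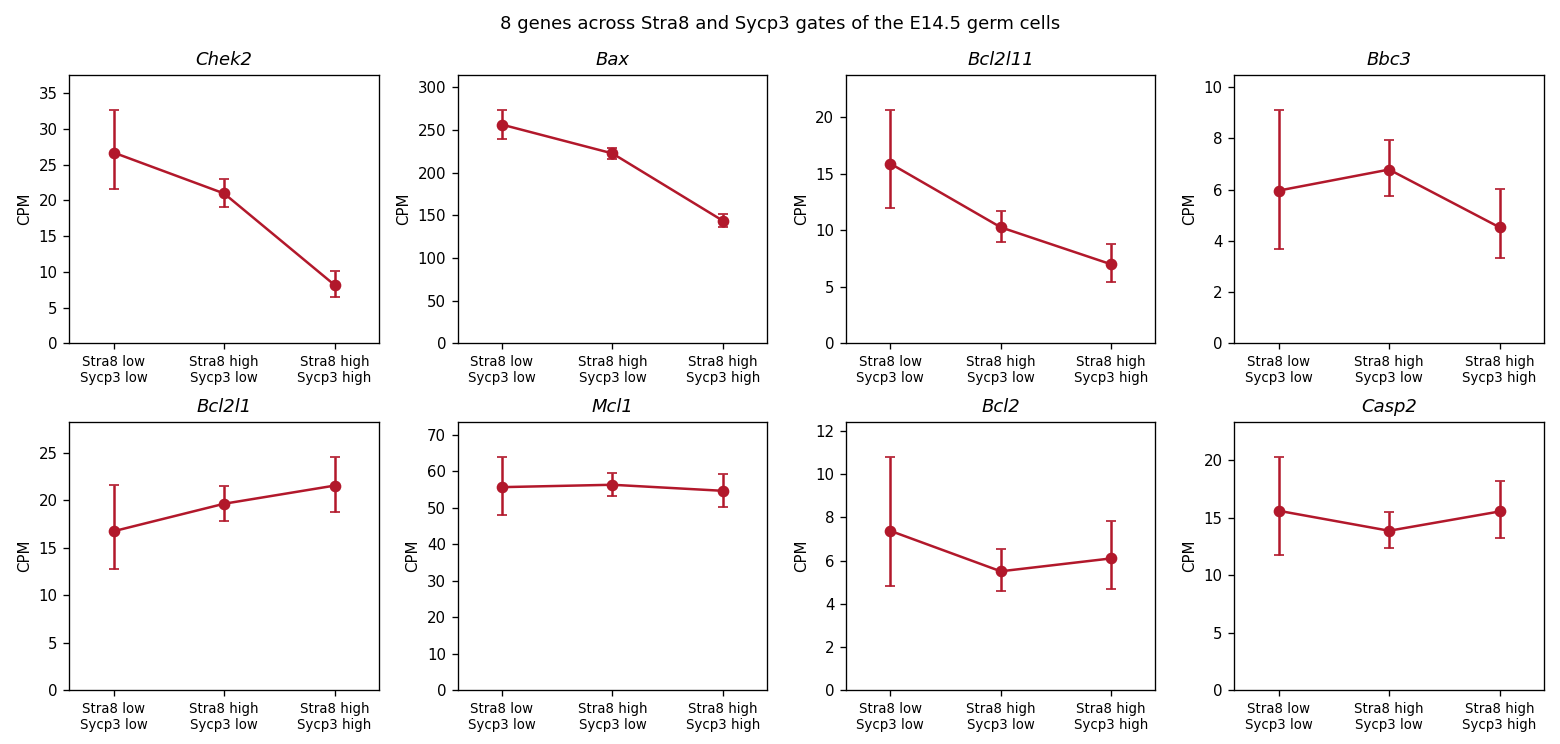
Levels in CPM of 8 members in 3 gates of the E14.5 germ cells, set by Stra8 (100 CPM) and Sycp3 (500 CPM), with 95% exact Poisson intervals. Chek2, Bax and Bcl2l11 are lowest where both genes are high, while the intervals of Mcl1, Bcl2 and Casp2 overlap.

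Bax (ENSMUSG00000003873, chr7:45461697-45466898, minus strand), the pore former, was the member with the most UMIs in germ cells at 5 of 6 ages. In order of age, its germ cell levels were 407 (393 to 422), 204 (199 to 208), 78.8 (75.3 to 82.3), 236 (223 to 249), 357 (342 to 372) and 233 (217 to 249) CPM. Somatic levels were 133, 102, 77.0, 107, 99.8 and 108 CPM. E16.5 was the lowest library in both classes.

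The ratio of germ to somatic Bax was 3.06 (2.93 to 3.19), 2.0 (1.93 to 2.08), 1.02 (0.973 to 1.08), 2.20 (2.05 to 2.35), 3.58 (3.39 to 3.77) and 2.15 (1.99 to 2.32) in order of age. The value at E14.5 sat on the 2-fold limit and ranged from 1.84 to 2.28 over 10 alternative settings. The lowest values were 1.91 at E18.5 and 1.69 at P5, both under median-ratio scaling and below 2-fold. In germ cells the step from E14.5 to E16.5 was 0.387 (0.368 to 0.407) and that from E16.5 to E18.5 was 2.99 (2.79 to 3.21). Taken from E14.5 to E18.5, without the E16.5 library, it was 1.16 (1.09 to 1.23), so the low point rests on that library alone. Thinned to 2000 UMIs, 53.04%, 31.7%, 13.4%, 34.9%, 51.1% and 37.1% of germ cells had a Bax UMI, against 2.20 to 6.83% of erythroid-gate cells. Another gene in the matrices, Gm45808, overlaps Bax on the same strand in the annotation, so reads in the overlap are uncertain.

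Bcl2 (ENSMUSG00000057329, chr1:106538178-106714274, minus strand), the founding protective gene, was lower in germ cells than in somatic cells of every library. The germ cells held 2.02 (1.13 to 3.33), 5.85 (5.09 to 6.69), 9.69 (8.51 to 11), 15.1 (12 to 18.7), 7.73 (5.68 to 10.3) and 10.5 (7.33 to 14.48) CPM in order of age. Somatic levels were 77.0, 42.6, 58.5, 52.3, 52.2 and 64.1 CPM. The ratio was 0.0263 (0.0147 to 0.0434) at E12.5 and between 0.137 and 0.288 afterwards.

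Part of the Bcl2 UMIs of germ cells came with markers of other cells. When germ cells that also passed a somatic gate were left out, Bcl2 was at 1.19, 4.5, 4.21, 11.7, 5.89 and 12.9 CPM in the order of the ages, and E16.5 moved the most, from 9.69 to 4.21 CPM. In the same germ cells the summed mesenchymal gate genes (Col1a1, Col3a1, Nr2f2, Pdgfra) ran from 16.7 CPM at E12.5 to 172 CPM at E16.5, against 419 to 2054 CPM in somatic cells. The part of these markers in the course of Bcl2 was not tested, nor was that of depth, with which the share of cells left out rose.

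Bcl2l1 (ENSMUSG00000007659, chr2:152780668-152831728, minus strand), another protective gene, stayed within 2-fold between the classes. In germ cells it was at 14.6 (11.9 to 17.6), 19.9 (18.51 to 21.4), 40.5 (38.1 to 43.1), 21.4 (17.7 to 25.7), 22.9 (19.2 to 27.0) and 22.7 (17.9 to 28.3) CPM in order of age. Somatic levels were 20.6, 21.6, 29.9, 21, 18.6 and 19.3 CPM. The ratios ran from 0.707 (0.574 to 0.864) at E12.5 to 1.36 (1.26 to 1.46) at E16.5. Over 10 alternative settings the E16.5 ratio ranged from 1.02 to 1.77. Leaving out cells that hold markers of several classes gave the low value and kept 4567 of 8774 somatic cells. The germ cell level was then 41.0 CPM, against 40.5 CPM, so the lower ratio came from the somatic level. A filter on gene number and mitochondrial share gave the high value. E16.5 was the highest library in both classes. The germ cell step from E14.5 was 2.03 (1.85 to 2.24) to E16.5 and 1.07 (0.877 to 1.31) to E18.5.

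Mcl1 (ENSMUSG00000038612, chr3:95658788-95663176, plus strand), the short-lived protective gene, was highest at E16.5 in both classes. Levels in germ cells were 38.8 (34.5 to 43.6), 55.7 (53.3 to 58.2), 95.1 (91.4 to 99.0), 60.5 (54.1 to 67.3), 57.8 (51.9 to 64.1) and 29.4 (23.9 to 35.7) CPM in order of age. Somatic levels were 66.1, 113, 162, 110.1, 48.8 and 62.9 CPM. The germ to somatic ratio was 0.492 (0.467 to 0.518) at E14.5 and 0.466 (0.379 to 0.569) at P5, while at P1 it was 1.18 (1.05 to 1.33). Without E16.5, the factor from E14.5 to E18.5 was 1.08 (0.963 to 1.22) in germ cells and 0.972 (0.927 to 1.02) in somatic cells.

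Genes of the dissociation response (Fos, Jun, Junb, Egr1, Ier2, Atf3, Hspa1a, Hspa1b) were measured beside Mcl1. Their summed level was 139 to 457 CPM in germ cells and 2384 to 5198 CPM in somatic cells of the 6 libraries. It was highest at E18.5 in germ cells and at P1 in somatic cells, not at E16.5. Their part in the Mcl1 levels was not tested.

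Bax UMIs were set against the summed UMIs of Bcl2, Bcl2l1 and Mcl1 within each class, which needs no scaling between libraries. In germ cells the quotient was 7.35 (6.63 to 8.17), 2.5 (2.39 to 2.61), 0.542 (0.513 to 0.572), 2.43 (2.20 to 2.70), 4.04 (3.67 to 4.45) and 3.72 (3.20 to 4.35) in order of age. In somatic cells it was 0.813, 0.573, 0.307, 0.585, 0.835 and 0.739. Germ cells lay above somatic cells at every age, and E16.5 was the lowest library in both. The sum leaves out Bcl2l10, a further protective relative described below. Its germ cell level at P5 was above those of Bcl2, Bcl2l1 and Mcl1, so the P5 quotient would be lower with it.

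Among the BH3-only genes, Bcl2l11 (ENSMUSG00000027381, chr2:128126038-128162547, plus strand) was lower in germ cells at E18.5 and P1 than at E12.5. In order of age, germ cells had 15.6 (12.9 to 18.8), 9.88 (8.89 to 11), 7.95 (6.89 to 9.13), 3.81 (2.36 to 5.83), 4.44 (2.93 to 6.46) and 8.14 (5.41 to 11.8) CPM. Somatic levels were 21.7, 19.5, 37.0, 25.5, 18.2 and 18.7 CPM, and germ cells were lower in every library. The ratio was below 0.5 from E16.5 on, with 0.150 (0.0920 to 0.231) at E18.5. From E14.5 to E18.5 the germ cell level changed by a factor of 0.386 (0.236 to 0.599).

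Bbc3 (ENSMUSG00000002083, chr7:16308393-16318205, plus strand), a p53 and p63 target, was not higher at the ages where Trp63 was high. The levels in germ cells were 10.2 (8.07 to 12.8), 6.07 (5.29 to 6.92), 4.59 (3.79 to 5.5), 2.90 (1.66 to 4.72), 4.28 (2.79 to 6.27) and 3.20 (1.60 to 5.72) CPM in order of age. Somatic levels stayed between 7.23 and 9.62 CPM. The germ to somatic ratio was 0.390 (0.218 to 0.651) at E18.5, and 0.569 there with the germ gate after thinning. At P5 it was 0.442 (0.218 to 0.802), where the germ cell level rests on 11 UMIs. The P5 ratio was 0.761 without cells that hold markers of several classes (mixed cells). From E12.5 to P5 the germ cell level changed by a factor of 0.312 (0.149 to 0.590). When mixed cells were left out, which kept 37 of 62 germ cells at P5, the factor was 0.564. This is no longer past 2-fold, but lies within that interval. All genes compared had a median log2 factor of 0.41 over this span, and their share past 2-fold was not counted.

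Pmaip1 (ENSMUSG00000024521, chr18:66458533-66465565, plus strand), the other BH3-only target of the p53 family, was lower in germ than in somatic cells at E14.5 and higher at E16.5. In order of age, germ cells were at 2.70 (1.65 to 4.16), 0.329 (0.170 to 0.575), 7.0 (6.01 to 8.11), 3.63 (2.22 to 5.61), 6.75 (4.84 to 9.15) and 2.62 (1.20 to 4.97) CPM. Somatic levels were 6.60, 1.87, 1.07, 1.23, 3.73 and 1.97 CPM. The ratio was 0.176 (0.0873 to 0.324) at E14.5 and 6.51 (5.06 to 8.43) at E16.5.

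Only P1 passed the minimum of 5 CPM on average that a called comparison needed, with a ratio of 1.81 (1.25 to 2.56). The germ cell step from E14.5 rests on 12 UMIs in 2669 cells. It was 21.2 (11.9 to 41.9) to E16.5 and 11 (5.13 to 24.7) to E18.5, so it did not rest on E16.5 alone. Both factors share the low E14.5 level, however. At E12.5 germ cells held 2.70 CPM, against 3.63 CPM at E18.5, and the factor from E12.5 to P5 was 0.970 (0.389 to 2.23). The immune gate genes summed to 1.87 to 17.8 CPM in germ cells and 22.6 to 194 CPM in somatic cells, and their part in the germ cell level of Pmaip1 was not tested.

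Casp2 (ENSMUSG00000029863, chr6:42264985-42282508, plus strand) was higher in germ cells at P5 than at E12.5, while no step between neighbouring ages reached 2-fold. Germ cell levels were 11.2 (8.91 to 13.9), 14.496 (13.3 to 15.8), 17.0 (15.4 to 18.7), 16.2 (13 to 19.9), 21.1 (17.6 to 25) and 28.5 (23.1 to 34.7) CPM in order of age. Over the whole span the factor was 2.55 (1.88 to 3.45). The median log2 factor of all genes compared over this span was 0.41, and their share past 2-fold was not counted. Somatic levels were 19.3, 21.7, 22.1, 21.7, 24.0 and 16.0 CPM, and the germ to somatic ratio moved from 0.580 (0.458 to 0.727) at E12.5 to 1.78 (1.42 to 2.20) at P5.

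**Figure D3:**
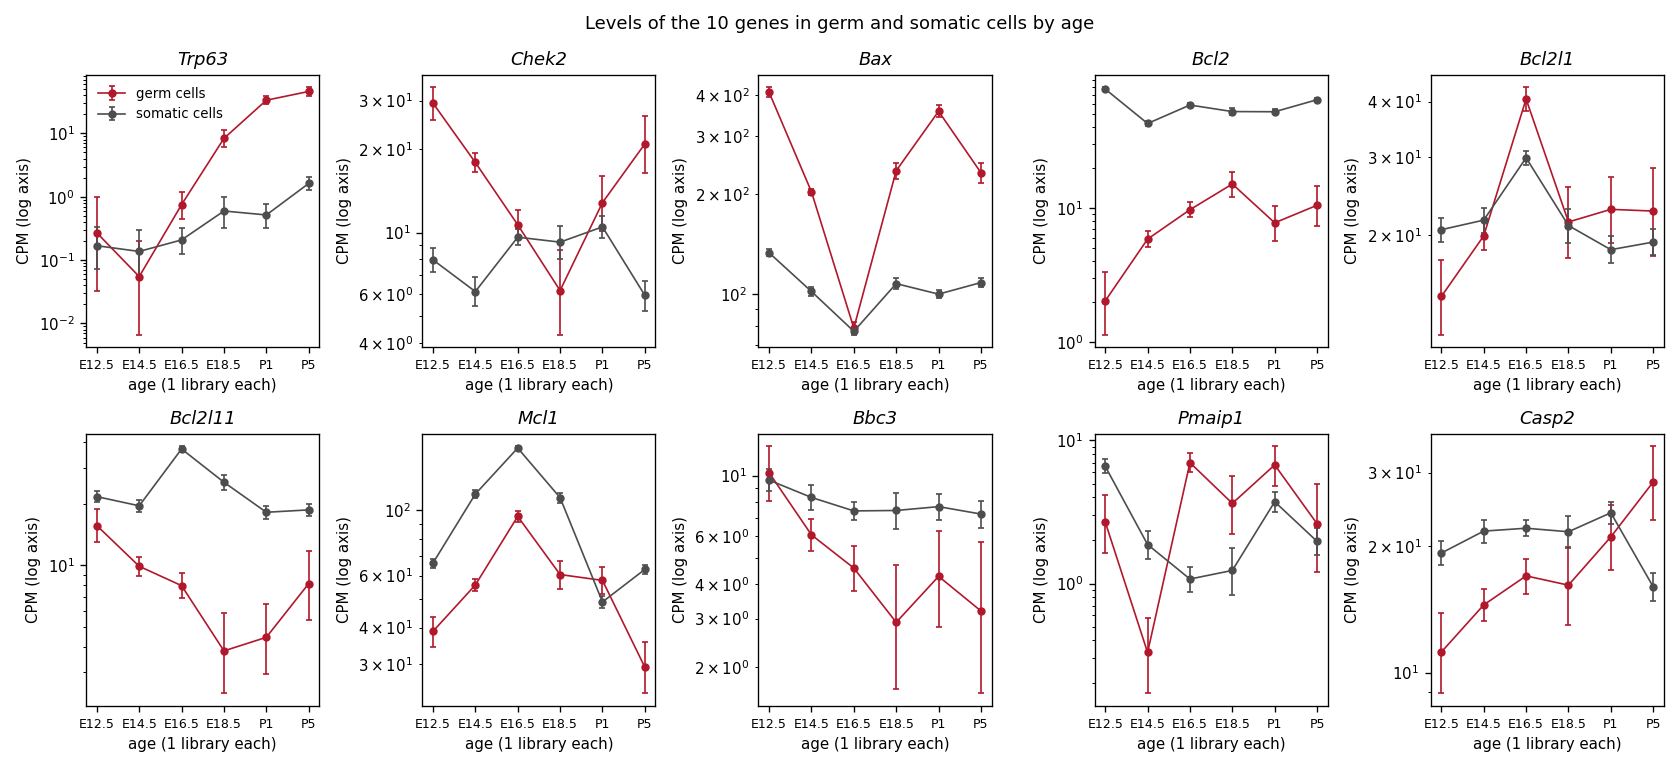
Level of each member in CPM (log axis, own scale per panel) in germ cells (red) and somatic cells (grey) of 6 libraries, with 95% exact Poisson intervals. Trp63 runs from 0.0549 to 45.9 CPM in germ cells, Bcl2 stays lower in germ than in somatic cells throughout, and Bax is lowest at E16.5, at 78.8 CPM.

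A gene was called different between classes at a ratio of at least 2 or at most 0.5, if its 2 levels averaged at least 5 CPM. At E12.5, 2 of 8 members compared were higher in germ cells (Chek2, Bax) and 1 was lower (Bcl2), against 13.6% and 31% of all 9931 genes compared. At E14.5, 2 of 8 were higher and 2 lower, against 18.1% and 27.8%. At E16.5, 0 of 8 were higher and 2 lower, against 24.6% and 29.7%, and without a minimum level 2 were higher.

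At E18.5, 1 of 8 was higher and 3 were lower, against 24.3% and 26.5% of all genes. At P1, 2 of 10 were higher and 2 lower, against 29.2% and 25%, and at P5, 3 of 9 were higher and 4 lower, against 29% and 26.6%. Trp63 and Pmaip1 were below the minimum at the first 4 of these ages and Pmaip1 also at P5. The counts of 8 to 10 members are too small to be set apart from the shares of all genes. The median log2 ratio of the members compared was -0.48, -0.52, -0.54, -0.72, 0.27 and 0.23, against -0.27, -0.10, 0.02, 0.13, 0.26 and 0.13 over all genes compared.

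**Figure D4:**
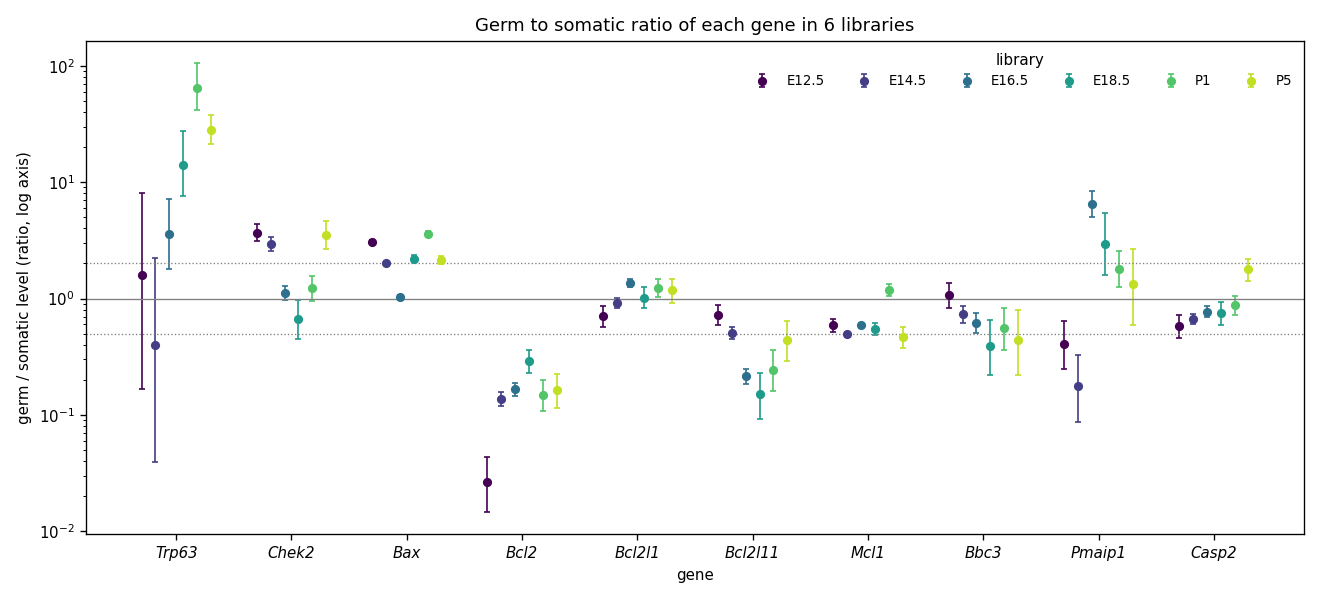
Germ to somatic ratio of each member in 6 libraries (log axis), with 95% exact conditional intervals, a line at 1 and dotted lines at the 2-fold limits. Bcl2 lies below 0.5 and Trp63 reaches 64.7 at P1.

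Members that averaged at least 5 CPM were counted where they passed 2-fold between neighbouring ages in germ cells. The counts of 7 or 8 members in a step are too small to be set apart from the shares of all genes. Members below the minimum of 5 CPM were not counted. From E12.5 to E14.5 these were, with their factors, Trp63 0.204 (0.0148 to 2.81), Bcl2 2.89 (1.71 to 5.26) and Pmaip1 0.122 (0.0545 to 0.262). From E14.5 to E16.5 they were Trp63 (13.7) and Pmaip1 (21.2), then Trp63 (11.1) and Bbc3 (0.633) to E18.5. Bcl2l11 (1.17) and Bbc3 (1.47) followed to P1, and Bbc3 (0.747) and Pmaip1 (0.388) to P5. From E12.5 to E14.5, 0 of 7 members compared were higher and 1 lower (Bax, with a factor of 0.50 (0.479 to 0.522)), against 12.4% and 7% of all genes compared. From E14.5 to E16.5, 1 of 8 was higher (Bcl2l1) and 1 lower (Bax), against 36% and 13.1%, and from E16.5 to E18.5, 1 of 8 was higher (Bax) and 1 lower (Bcl2l11), against 10.1% and 16.9%. With E16.5 left out, the step from E14.5 to E18.5 gave 1 of 7 higher (Bcl2) and 2 lower (Chek2, Bcl2l11), against 23% and 9.03% of all genes compared. Of 10 alternative settings, 2 changed only the somatic cells and so left these factors as they were. Over the 10, the factor of Bax from E12.5 to E14.5 ranged from 0.490 to 0.528 and was above 0.5 in 5. That of Bcl2l1 from E14.5 to E16.5 ranged from 1.91 to 2.13. The factor of Bcl2l11 from E16.5 to E18.5 ranged from 0.428 to 0.653.

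From E18.5 to P1, 2 of 8 were higher (Trp63, Chek2) and 0 lower, against 9.34% and 12.4% of all genes compared. The factor of Chek2 ranged from 1.74 (gate after thinning) to 2.10 over the alternatives. It was at or above 2 in 6 of 10, counting the 2 that changed only the somatic cells. From P1 to P5, 0 of 8 were higher and 0 lower, against 12% and 8.3%. Some factors of this step crossed the limit under the alternatives. That of Mcl1 was 0.508 and was at or below 0.5 in 3 of 10. Trp63 reached 2.03 as a mean over cells, and without mixed cells Bcl2 reached 2.19 and Bcl2l11 2.28. In somatic cells the same 5 steps gave 1 call in all, Mcl1 from E18.5 to P1, with a factor of 0.443 (0.418 to 0.470). Of all genes compared in somatic cells, 4.14%, 21.3%, 4.19%, 3.55% and 4.97% were higher and 5.86%, 3.99%, 13.6%, 7.2% and 3.27% lower in these steps, in order of age.

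Among somatic cells the members differed by class. Over the cells that passed exactly 1 marker gate, Bcl2 was at 62.3 CPM in the supporting gate and 67.3 CPM in the mesenchymal gate, 14.4 CPM in the endothelial gate, 9.44 CPM in the immune gate and 1.58 CPM in the erythroid gate. In the supporting gate, which marks pregranulosa cells, it ranged from 40.6 CPM at E16.5 to 88.3 CPM at E12.5, above the germ cell level of each library. Exactly 1 gate was passed by 3408 of 8774 somatic cells at E16.5 and by 2664 of 4228 at E12.5. At E16.5 all somatic cells held 58.5 CPM of Bcl2, above the supporting and mesenchymal (50.5 CPM) gates. At E12.5 they held 77.0 CPM, below both (88.3 and 102 CPM). The part of the cells left out in these levels was not tested. Pooled over libraries, Mcl1 was at 249.6 CPM (236 to 263) in the immune gate and 108 CPM in the supporting gate, but at E18.5 the immune gate had 139 CPM and the supporting gate 147 CPM.

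In the immune gate the pooled level was 106 CPM for Bcl2l11 (97.2 to 115) and 45.0 CPM for Pmaip1 (39.5 to 51.0). At E18.5, however, Bcl2l11 was at 24.3 CPM there and at 40.4 CPM in the mesenchymal gate. Pmaip1 was at 7.44 CPM in the mesenchymal gate at E12.5, while its pooled level in that gate was 2.32 CPM. Bcl2l1 was at 72.0 CPM in the erythroid gate (68.0 to 76.1), where its product is known to protect red cell precursors, and the levels there ran from 32.0 CPM at P1 to 138 CPM at E16.5. In the endothelial gate (285 cells) the pooled level was 26.2 CPM for Chek2 (21.8 to 31.2) and 185 CPM for Bax (173 to 197). The order of the gates was not the same in every library, since Bax was at 146 CPM in the immune gate and 127 CPM in the endothelial gate at E16.5, and Chek2 at 22.2 CPM in the erythroid gate and 19.4 CPM in the endothelial gate at P1. The pooled values add libraries of unequal size.

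**Figure D5:**
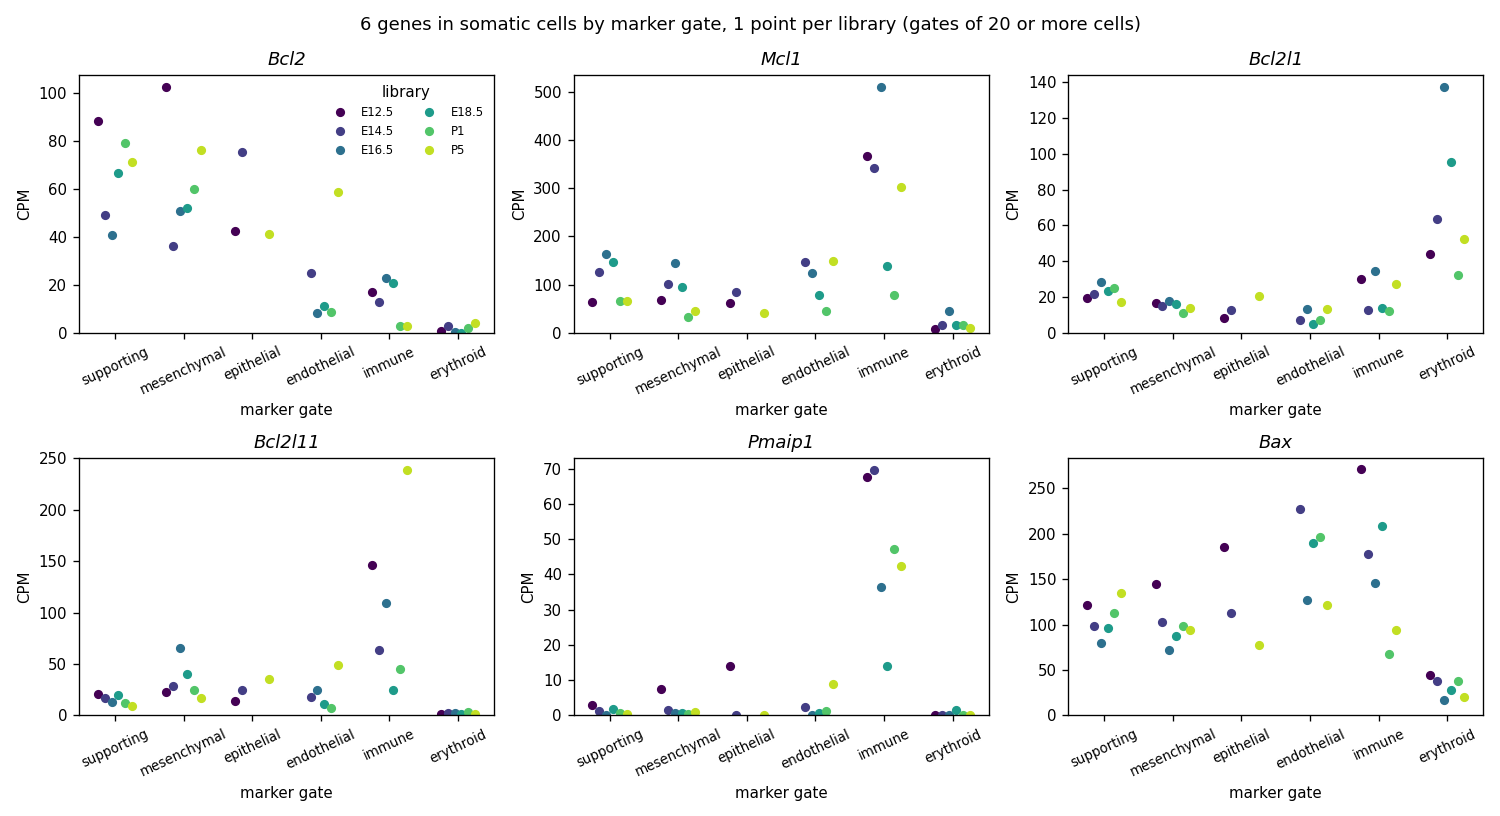
Levels in CPM of 6 members in somatic cells by marker gate, with 1 point per library for gates of 20 or more cells. Bcl2 is higher in the supporting and mesenchymal gates than in the erythroid gate, and Bcl2l1 reaches 138 CPM in the erythroid gate at E16.5.

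Germ cells of low depth were also described by themselves. Cells below a cutoff of 0.333 of the median UMIs of their library's germ cells numbered 35, 178, 125, 26, 46 and 12 in order of age. Mitochondrial genes took 5.52, 4.12, 7.82, 5.01, 7.95 and 11.6% of their UMIs, against 3.59, 2.81, 7.52, 4.72, 5.06 and 4.56% in the deeper germ cells. At E16.5 they held 94.7 CPM of Bax (67.0 to 130.0), 47.3 CPM of Bcl2l1 (28.5 to 73.9) and 89.7 CPM of Mcl1 (62.8 to 124), against 78.5, 40.4 and 95.2 CPM in the deeper germ cells. At P1 they held 235 CPM of Bax (162.5 to 328) against 359.7 CPM (345 to 375), and 20.7 CPM of Mcl1 on 3 UMIs against 58.7 CPM (52.7 to 65.2). Bbc3 and Pmaip1 together gave 1 UMI in these 46 cells. At E18.5, Bax was at 366 CPM in them (239 to 536) against 234 CPM (221 to 247), on 26 UMIs. The depth of these cells limits what can be seen in the sparser members.

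The other genes of the pathway were taken as 46 genes in 7 lists. Both other pore formers, Bak1 and Bok, were lower in germ cells of all 6 libraries, where 25 to 31% of all genes compared were lower. Bak1 was at 0.944 to 4.54 CPM in germ cells and 15.3 to 23.2 CPM in somatic cells, and Bok at 1.16 to 4.28 against 27.2 to 56.7 CPM. Of 4 further protective relatives, 1 was compared at each age up to P1 and 3 at P5. Among them Bcl2l2 was lower in germ cells of all 6 libraries, beside the same share. Bcl2l10 was listed at 0 UMIs in germ cells up to E16.5. It reached 0.908 CPM at E18.5, 6.75 CPM at P1 and 53.5 CPM at P5, against at most 0.209 CPM in somatic cells. The P5 ratio was 256 (132 to 570).

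Of 17 caspases and their regulators, 16 were compared at each age, with 2 or 3 higher and 5 to 7 lower in germ cells. For this and the next lists, the shares of all genes at the same ages were 13.6 to 29.2% higher and 25 to 31% lower. Casp8 and Cflar were lower in all 6 libraries. Casp8, the initiator caspase of the death receptors, was at 0.404 to 3.49 CPM in germ cells and 15.2 to 28.5 CPM in somatic cells. The death receptor Tnfrsf1a was at 1.35 to 4.90 against 33.8 to 52.9 CPM. Cflar, an inhibitor of Casp8, was at 3.24 to 8.35 against 42.5 to 73.4 CPM.

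Of 7 checkpoint and p53 family genes, 6 were compared at each age, with 2 to 4 higher and 0 to 2 lower in germ cells, beside the shares of all genes just given. Atr, a kinase of the DNA damage response, was at 45.6, 60.8, 615, 113, 72.1 and 48.8 CPM in germ cells and at 9.39 to 38.7 CPM in somatic cells, with its high point at E16.5 in both classes. That high point rests on the E16.5 library, and the germ cell levels on either side were 60.8 and 113 CPM. Cdkn1a, the p53-induced inhibitor of the cell cycle, was at 52.3, 57.4, 8.03, 3.99, 10.2 and 21.8 CPM in germ cells, with its lowest ratio of 0.0817 at E18.5 (0.0510 to 0.124).

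Of 8 target genes of p53 and p63, 6 or 7 were compared, with 1 to 3 higher and 2 lower at each age, against 13.6 to 29.2% higher and 25 to 31% lower among all genes. Perp, a p53 and p63 target that encodes a membrane protein, was at 10.9, 4.97, 2.14, 2.72, 23.2 and 36.6 CPM in germ cells and at most 4.03 CPM in somatic cells. Its germ cell ratio to somatic cells was 14.3 at P1 (10.7 to 19.4). Aen, a nuclease gene induced by p53, was at 33.3, 17.8, 92.4, 297, 293 and 189 CPM in germ cells against 9.32 to 24.2 CPM in somatic cells. Phlda3 was lower in germ cells at every age, at 19.8 to 2.91 CPM against 29.0 to 54.8 CPM. Of 5 further BH3-only genes, 2 or 3 were compared at each age, with 0 or 1 higher and 0 to 2 lower, beside the same shares. Of 3 death receptor genes, 1 or 2 were compared, with 1 lower at each age and 1 higher at E12.5. Lists of so few compared genes cannot be set apart from the shares of all genes.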

How the data were processed

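Single-cell RNA was measured in 7 libraries. As deposited, each value is the number of UMIs (a raw count) of a gene in a cell. The authors obtained these counts with Cell Ranger 3.1.0 and the mm10 reference, from libraries they describe as 10x v2, and did not normalize them. There were 52542 called cells. Of these, 50823 with at least 200 genes were kept (492138529 UMIs, median per cell 6349 to 11060 by library). Libraries were grouped by the age in their labels, and no sample was left out of the description. The counts are 3′ tags, so isoforms of Trp63 and Bcl2l1 cannot be told apart.

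Here, UMIs were summed over the cells of a class and divided by the class total. Intervals are exact at 95% (Poisson, binomial, conditional). A ratio was called at 2-fold in either direction if the levels averaged at least 5 CPM, with a count of 0 set to a floor of 3 counts per class, and all 31053 genes were put to the same rule. With 1 library per age no p-value was computed. Somatic gates needed 3 UMIs of their markers (supporting Wnt4, Wnt6, Kitl, Foxl2; epithelial Upk3b, Krt19, Lrrn4; mesenchymal Col1a1, Col3a1, Nr2f2, Pdgfra; endothelial Cldn5, Cdh5, Pecam1, Egfl7; immune Ptprc, Tyrobp, Fcer1g) or at least 20% haemoglobin UMIs (erythroid). Shares of cells were taken after thinning to 2000 UMIs. Doublets were kept in the main values. The gate on Dazl and Ddx4 favours deeper germ cells. Somatic gates were also passed by a larger share of germ cells in libraries where their median depth was higher. The members and lists were chosen with earlier results of these data known. Named genes are the 10 members, at most 12 genes of the lists with the largest ratios past 4-fold, and the 8 genes most like Trp63. Bcl2l2 is also named, outside this rule. One gene that this rule names is not reported here. Genes were placed with GENCODE vM21 on GRCm38. The ratio script was tested on simulated data. Scripts ran under Python 3.11.15. Intervals came from scipy 1.17.1, tables from pandas 2.3.3 and numpy 2.4.6, and plots from matplotlib 3.10.9. Other gates, depths, scalings, filters and a treatment of mixed cells were run as alternatives.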

Additional observations from a re-analysis of the deposited data

Results flagged for a closer look

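The germ to somatic ratio lay above 1 in one library and below 1 in another, each with its interval, for 5 of the 10 members. These differences between libraries were not tested. Chek2 had a ratio of 3.69 at E12.5 and 0.668 at E18.5. Bcl2l1 had 1.36 at E16.5 and 0.707 at E12.5. Mcl1 had 1.18 at P1 and 0.466 at P5. Pmaip1 had 6.51 at E16.5 and 0.176 at E14.5. Casp2 had 1.78 at P5 and 0.580 at E12.5. Over 10 alternative settings the ratio of Bcl2l1 at E16.5 ranged from 1.02, without cells that hold markers of several classes, to 1.77. That of Mcl1 at P1 ranged from 0.934, under median-ratio scaling, to 1.38.

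The E11.5 library entered no comparison. In its 9 germ cells, 6 of the 10 members had more than 3 UMIs, with Bax at 489.6 CPM and Chek2 at 44.5 CPM, above their E11.5 somatic levels of 165 and 13.1 CPM. Trp63 had 0 UMIs there, where 3 would be 13.4 CPM. The 8179 somatic cells at E11.5 held 53 Trp63 UMIs in 21 cells.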

How the results depend on the processing

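Each germ to somatic ratio and germ cell level was recomputed under 10 alternatives (germ gates of 5 and 10 UMIs or after thinning, 3 choices of somatic or filtered cells, 2 scalings, a mean over cells, and mixed cells left out), and counts of members also with 5 CPM added and with no filter on low levels. Of 600 ratios, 529 stayed within the interval of the reported value, 71 moved outside and 0 of the called ones changed direction. Of 600 levels, 563 stayed within and 37 moved outside. Since 2 of the 10 alternatives changed only the somatic cells, germ cell levels and their steps could not move under them. Of 120 shares of cells, 104 moved, since a share depends on depth. Counts stayed within 1.5 times in 127 of 146 runs. Higher members at E14.5 went from 2 to 1 with the gate after thinning, with all cells below the gate as somatic, without haemoglobin-rich cells, with cells limited to 1000 or more genes and no more than 10% mitochondrial UMIs, with scaling without haemoglobin and mitochondrial genes, with the mean over cells and with 5 CPM added. Lower members at E14.5 went from 2 to 1 with the gate after thinning, median-ratio scaling or 5 CPM added and to 4 with no filter. Lower members at E12.5 went from 1 to 2 with scaling without haemoglobin and mitochondrial genes or no filter, higher members at E16.5 from 0 to 2 with no filter, and higher members at E18.5 from 1 to 0 with the gate after thinning or median-ratio scaling and to 3 with no filter. Lower members at P5 went from 4 to 1 with 5 CPM added. The cause was not tested. The germ cell level of Trp63 at P5 was 39.0 CPM with the gate after thinning, 59.6 as a mean over cells and 56.8 without mixed cells, and its ratio ranged from 9.03 to 15 in the E18.5 library, from 22.2 to 124 in that of P1 and from 12.8 to 35.1 in that of P5. Leaving out the E16.5 library, chosen after seeing the data, made 2 members lower from E14.5 to the next library in place of 1. Median-ratio scaling put the median log2 ratio of all genes at -0.25 at P5, against 0.13 before. No paired analysis was possible because each age has 1 library. Few UMIs limit Pmaip1 at E14.5 (12), Bbc3 at P5 (11) and Trp63 at E12.5 and E14.5 (2 each).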

Other observations

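Most Trp63 UMIs of the E11.5 somatic cells were in a few cells. Of the 53 UMIs, 38 lay in 9 cells with 3 or more each and a median of 11739 UMIs. These cells were looked at after their values were seen. They also held Krt14 (344 CPM, 6 of 9 cells), a keratin of basal epidermis, Perp (381 CPM, 8 of 9 cells), Sfn (334 CPM, 8 of 9 cells), Gjb2 (455 CPM, 7 of 9 cells), Tfap2b (455 CPM, 8 of 9 cells) and Cxcl14 (2722 CPM, 8 of 9 cells). In E11.5 somatic cells without a Trp63 UMI the same genes were at 0.852, 1.94, 1.35, 0.939, 5.35 and 5.90 CPM. Of the muscle genes, Acta1 was found in 2 of the 9 cells and Mylpf in 1.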
